A study of Penaeus vannamei with 11 samples.

Results

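Genes of the shell, of chitin and of the gut lining were described in hemocytes, the circulating blood cells, of the Pacific white shrimp *Penaeus vannamei*. The members were the genes whose first deposited description contained cuticle, cuticular, chitin, peritrophin, obstructor or crustacyanin, in either case of letters. They numbered 171 of 18803 genes. By name they comprised 99 cuticle proteins, 24 chitin enzymes (chitinases, chitinase-like proteins and a chitin synthase), 15 peritrophins, 5 obstructors and 28 crustacyanins.

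The RNA came from 4 groups of libraries: 3 of females stimulated with *Vibrio parahaemolyticus*, 3 of control females, 3 of Vibrio males and 2 of control males, numbered 2 and 3. A control male numbered 1 was not analysed here. Every sample, controls included, carried the treatment label "immune". The labels describe hemolymph drawn into anticoagulant and spun down, with no further sorting of cells, and do not give the dose, the route, the time after stimulation or the age of the animals. They do not say whether libraries of a group came from separate animals or pools, so p-values measure the spread between these samples only.

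Chitin, a polymer of N-acetylglucosamine, is the scaffold of the crustacean shell and of the peritrophic matrix that lines the gut. Chitin synthase makes it, chitinases cut it during moulting and digestion, and cuticle proteins, peritrophins and obstructors bind it in the shell or the gut. Crustacyanins are lipocalins that hold the carotenoid astaxanthin and colour the shell. The epidermis and the gut are the tissues best known for most of these genes, while some chitinase-like proteins also act in blood cells and immunity.

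Depth ran from 39733829 to 53837438 counts per library. The hemocyte markers, 30 genes that include penaeidin-3a-like and crustacean hematopoietic factor-like protein, took 1.86 to 3.93% of counts and had no gene at 0 everywhere. Markers of other tissues were also read. Hepatopancreas markers (81 genes, 4 of them at 0 in every library) took 0.0442 to 0.226% in Vibrio females, 0.0432 to 0.199% in control females, 0.0409 to 0.0803% in Vibrio males and 0.0908 to 0.299% in control males. Muscle markers (54 genes) took 0.314 to 0.435% and gonad markers (11 genes) at most 0.000761% of the counts of a library. The hepatopancreas list was led by hemocyanin (LOC113830072, mean 96.0 FPKM) and hemocyanin C chain-like (LOC113830073, mean 94.2 FPKM). The muscle list was drawn by name and led by arginine kinase (mean 910 FPKM) and myosin regulatory light chain sqh (mean 818 FPKM). Its share was not read as an amount of muscle tissue. Vibrio female 1 stood apart in what follows. In bulk RNA, fewer cells of a type and less RNA per cell cannot be told apart.

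The members were rare in hemocytes. They took 0.0858, 0.0150 and 0.0223% of counts in Vibrio females 1 to 3, against 0.0208, 0.0287 and 0.0341% in control females 1 to 3. In males they took 0.0171, 0.0204 and 0.0154% with Vibrio, against 0.0209 and 0.0274% in controls 2 and 3. Vibrio female 1 had the highest share and Vibrio female 2 the lowest, so the spread within that group covered all the other libraries.

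Of the 171 members, 168 had a count in some library, 65 had counts in 1 library only, 31 in 2 libraries and 12 in all 11. Among all genes, 11596 of 18803 (61.7%) had counts in all 11. Only 56 members (32.7%) passed the filter on low counts and were tested, against 14295 genes (76.0%). In FPKM, fragments scaled by gene length and library depth, 20 members averaged at least 1 over the libraries and 113 averaged under 0.1. The 3 members with no count were pupal cuticle protein Edg-91-like (LOC113819910), an obstructor-E-like gene (LOC113814527) and ovarian peritrophin (LOC113814582), a protein known from the shrimp egg.

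The number of members with a count was 100, 29 and 52 in Vibrio females, against 45, 52 and 81 in control females. It was 34, 39 and 46 in Vibrio males, against 59 and 65 in control males. Of the 99 cuticle proteins, 40 were counted in Vibrio female 1 and 36 in control female 3, and 8 each in Vibrio female 2 and Vibrio male 2. Of the 28 crustacyanins, 26 were counted in Vibrio female 1 and 2 in control female 1. Of the members, 70 reached their highest level in Vibrio female 1, 29 in control female 3 and none in Vibrio male 2.

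**Figure D1:**
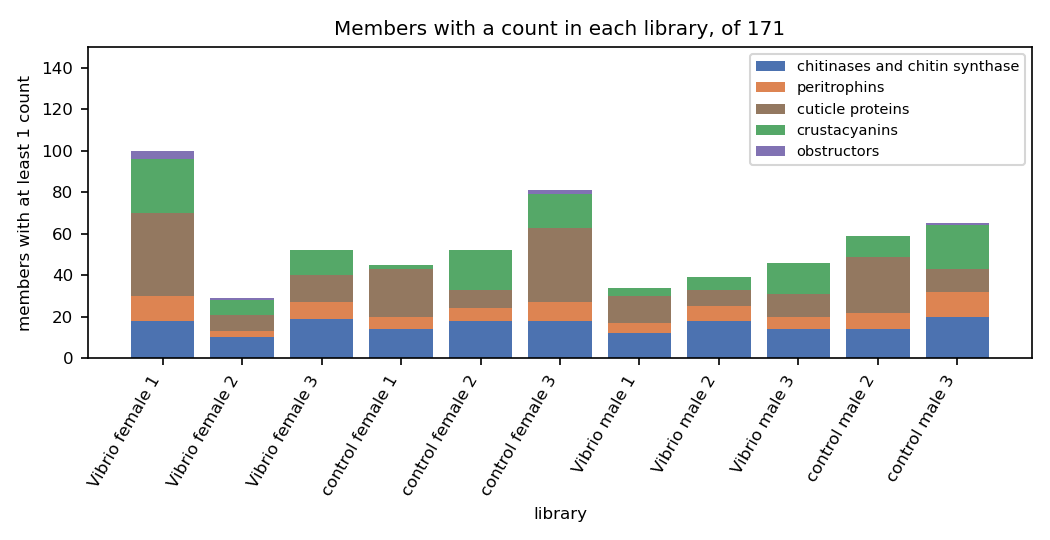
Number of the 171 members with at least 1 count in each library, stacked by subgroup. Vibrio female 1 reached 100 and Vibrio female 2 reached 29, both in the same group.

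Among the members that did reach a mean of 1 FPKM, some reached it through 1 library. The coefficient of variation over 11 libraries had a median of 134% for the 20 members, against 26.6% for all 10219 genes at that level. Without Vibrio female 1, 4 of the 20 (LOC113800804, LOC113805545, LOC113816726 and LOC113819740) averaged under 1 FPKM. The median over the other 10 libraries was then 84.6% for the remaining 16 members, against 26.6% for 10106 genes. The lower quartile of the members was 60.3% with that library and 33.0% without it, against an upper quartile of all genes of 39.3% with it and 38.8% without it. A member high in 1 library enters the set through that library, so these medians are descriptions with no test. Of the 12 members counted in every library, 6 were chitin enzymes, 3 cuticle proteins, 2 crustacyanins and 1 a peritrophin.

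**Figure D2:**
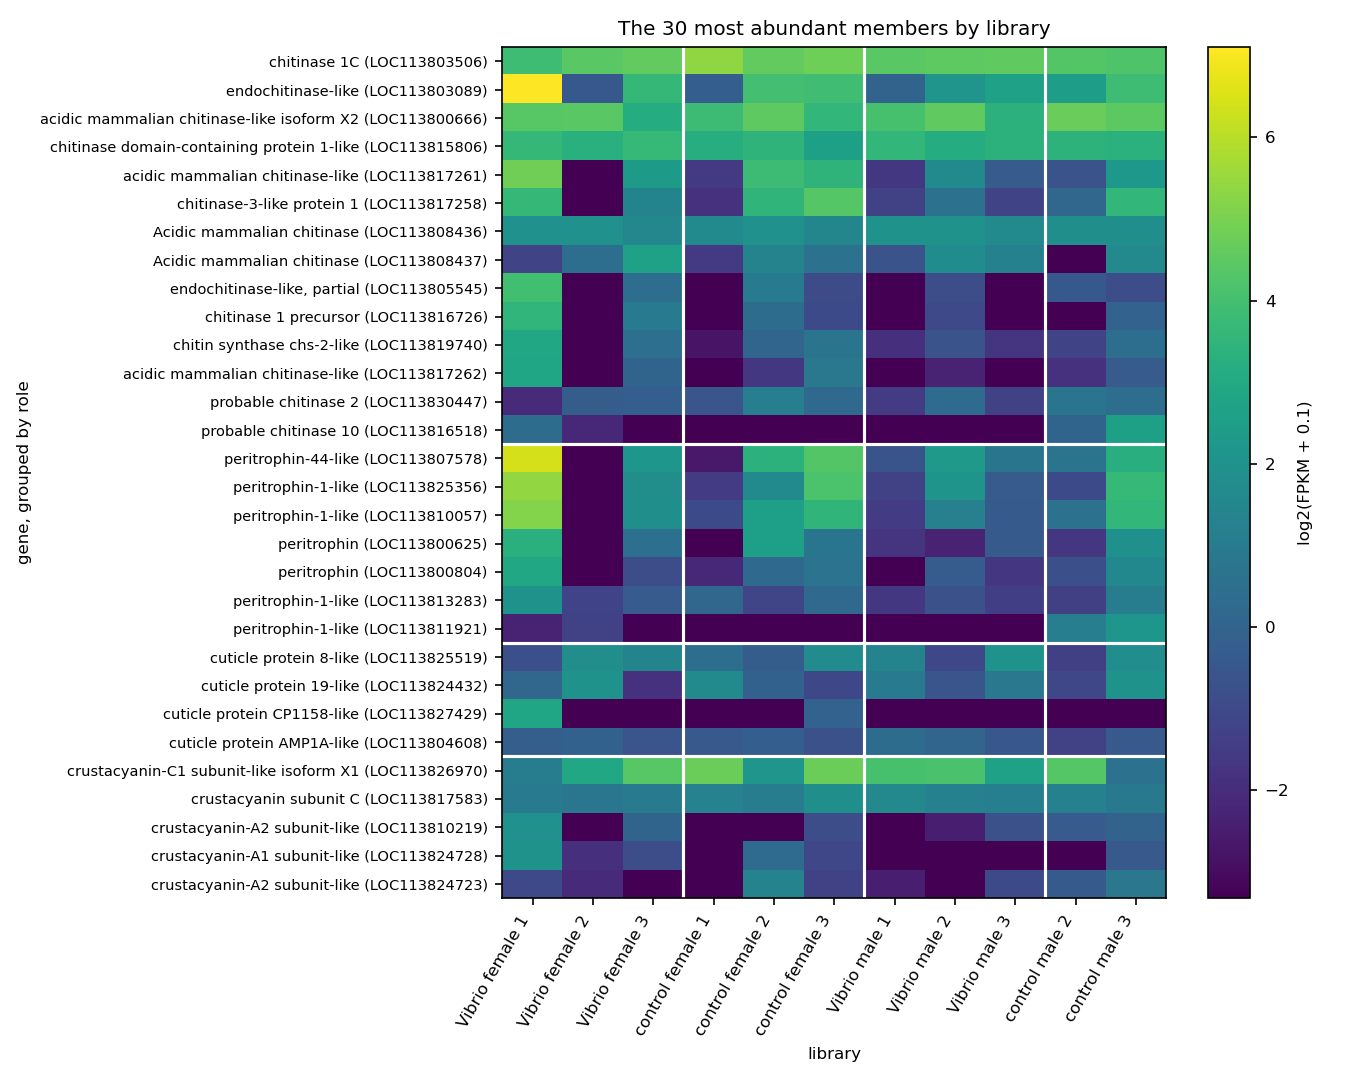
Level of the 30 most abundant members in each library as log2(FPKM + 0.1), with genes in rows by role and libraries in columns by group. A few chitinases and crustacyanin subunit C keep 1 colour across the row. The peritrophins other than LOC113811921 are bright in Vibrio female 1 and dark in Vibrio female 2.

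The chitin enzymes had a higher summed FPKM than the other subgroups together in each of the 11 libraries. The 1 synthase, chitin synthase chs-2-like (LOC113819740), which makes chitin and whose insect counterpart serves the gut, had 7.29, 0 and 1.29 FPKM in Vibrio females, against 0.0458, 0.970 and 1.53 FPKM in control females. It had 0.163, 0.531 and 0.196 FPKM in Vibrio males, against 0.344 and 1.28 FPKM in control males. Its highest value and its only 0 both lay among the Vibrio females.

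Chitinase 1C (LOC113803506), a chitin-cutting enzyme by name, was the most abundant member, with a mean of 23.7 FPKM and a coefficient of variation of 29.0%. Its values were 14.6, 21.4 and 24.4 FPKM in Vibrio females, against 41.6, 24.3 and 27.9 FPKM in control females. They were 21.8, 22.7 and 23.5 FPKM in Vibrio males, against 19.7 and 18.7 FPKM in control males. All 5 male libraries lay between 18.7 and 23.5 FPKM, and the highest value, in control female 1, stood apart from the rest. In females the log2 fold change with Vibrio was -0.65 (SE 0.25, edgeR adjusted p = 0.986), so it did not pass.

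Acidic mammalian chitinase-like isoform X2 (LOC113800666), named for the mammalian enzyme of stomach and airway, was present in every library. It had 21.0, 21.7 and 8.79 FPKM in Vibrio females, against 14.2, 23.1 and 11.97 FPKM in control females. It had 16.6, 23.4 and 10.4 FPKM in Vibrio males, against 26.6 and 22.5 FPKM in control males. In FPKM the Vibrio and control ranges overlapped in each sex.

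Chitinase domain-containing protein 1-like (LOC113815806), whose mammalian counterpart is a lysosomal, lectin-like protein, had a coefficient of variation of 18.3%. It averaged 11.5 ± 1.46 FPKM in Vibrio females and 8.58 ± 2.53 FPKM in control females (SD, n = 3 each), with a log2 fold change of 0.42 (SE 0.20, edgeR adjusted p = 0.986). It averaged 10.2 ± 1.51 FPKM in Vibrio males (n = 3) and 10.4 ± 0.356 FPKM in control males (n = 2), with -0.14 (SE 0.22, edgeR adjusted p = 0.942). Acidic mammalian chitinase (LOC113808436) was the steadiest of the 20 members, between 2.69 and 3.99 FPKM in the 11 libraries (coefficient of variation 14.4%). The other gene of that name (LOC113808437) ran from 0 in control male 2 to 6.16 FPKM in Vibrio female 3.

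Other chitinases appeared in some libraries and were nearly absent from others. Endochitinase-like (LOC113803089) had 138, 0.623 and 12.3 FPKM in Vibrio females, against 0.759, 15.7 and 15.04 FPKM in control females. It had 0.907, 4.22 and 6.19 FPKM in Vibrio males, against 5.54 and 14.4 FPKM in control males. Vibrio female 1 was the highest and Vibrio female 2 the lowest of the 11 libraries.

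A run of 3 chitinase-family genes lay side by side in the deposited coordinates. It comprised chitinase-3-like protein 1 (LOC113817258), named for a mammalian protein that binds chitin without cutting it, and 2 genes named acidic mammalian chitinase-like (LOC113817261 and LOC113817262). Their summed level was 47.7, 0 and 8.40 FPKM in Vibrio females, against 0.422, 25.8 and 33.0 FPKM in control females. It was 0.540, 4.50 and 1.05 FPKM in Vibrio males, against 1.71 and 17.1 FPKM in control males. Vibrio female 2 had no count for any of the 3, and all groups overlapped. Endochitinase-like, partial (LOC113805545) had 15.5, 0 and 1.25 FPKM in Vibrio females, against 0, 1.80 and 0.444 FPKM in control females, and at most 0.638 FPKM in any male library.

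The peritrophins differed widely between libraries of the same group. Their summed level was 188, 0.923 and 14.1 FPKM in Vibrio females, against 2.04, 26.4 and 54.0 FPKM in control females. In males it was 1.55, 12.9 and 4.10 FPKM with Vibrio, against 6.50 and 47.4 FPKM in controls. Vibrio female 1 and Vibrio female 2 were the highest and the lowest of all 11 libraries. Of the 15 peritrophins, 9 peaked in Vibrio female 1 and 4 in control male 3.

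Peritrophin-44-like (LOC113807578), named for a chitin-binding protein of the fly gut lining, had 87.0, 0 and 4.34 FPKM in Vibrio females, against 0.0620, 10.3 and 20.02 FPKM in control females. It had 0.556, 4.95 and 1.55 FPKM in Vibrio males, against 1.53 and 9.07 FPKM in control males. Its group means were 30.4 ± 49.0 FPKM in Vibrio females and 10.1 ± 9.98 FPKM in control females (SD, n = 3 each), with a log2 fold change of 1.52 (SE 1.95, edgeR adjusted p = 0.986). Without Vibrio female 1 the log2 fold change was -2.35 (edgeR adjusted p = 0.999), so its direction rested on that library. The SD was larger than the mean in the Vibrio females, and the ranges overlapped. A pair of peritrophin-1-like genes were likewise highest in Vibrio female 1 and at 0 in Vibrio female 2. LOC113825356 had 42.3, 0 and 3.48 FPKM in Vibrio females, against 0.256, 2.96 and 17.7 FPKM in control females. LOC113810057 had 36.0, 0 and 3.599 FPKM in Vibrio females, against 0.412, 5.80 and 11.2 FPKM in control females.

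Another peritrophin-1-like gene (LOC113811921) had another distribution. Its counts were 4, 11 and 0 in Vibrio females, against 0, 0 and 0 in control females. They were 0, 0 and 0 in Vibrio males, against 59 and 153 in control males. Both control males stood above every other library. Against a floor of 3 counts per library, the level was at least 41.0-fold lower in Vibrio males than in control males, and at least 38.7-fold higher in control males than in control females. The edgeR adjusted p was 0.933 for Vibrio males, 0.756 for control males against control females and 0.740 for the difference between the sexes' Vibrio effects. DESeq2 gave 0.0377, 0.0406 and 0.00773 for the same comparisons, which makes it the 1 member called by either tool.

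Probable chitinase 10 (LOC113816518), named for a large fly chitinase that acts in moulting, was distributed in much the same way. It had 65, 7 and 0 counts in Vibrio females and 0 in each control female. It had 0 counts in each Vibrio male. The control males had 0.934 and 5.96 FPKM, the first of them from 40 counts. The level was at least 63.8-fold lower in Vibrio males than in control males and at least 60.2-fold higher in control males than in control females, with edgeR adjusted p of 0.933 and 0.756. Control male 3 held most of these counts. Without it the bounds were 20.1-fold and 18.9-fold, and without control male 2 they were 108-fold and 102-fold. Vibrio female 1 had more counts than control male 2.

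**Figure D3:**
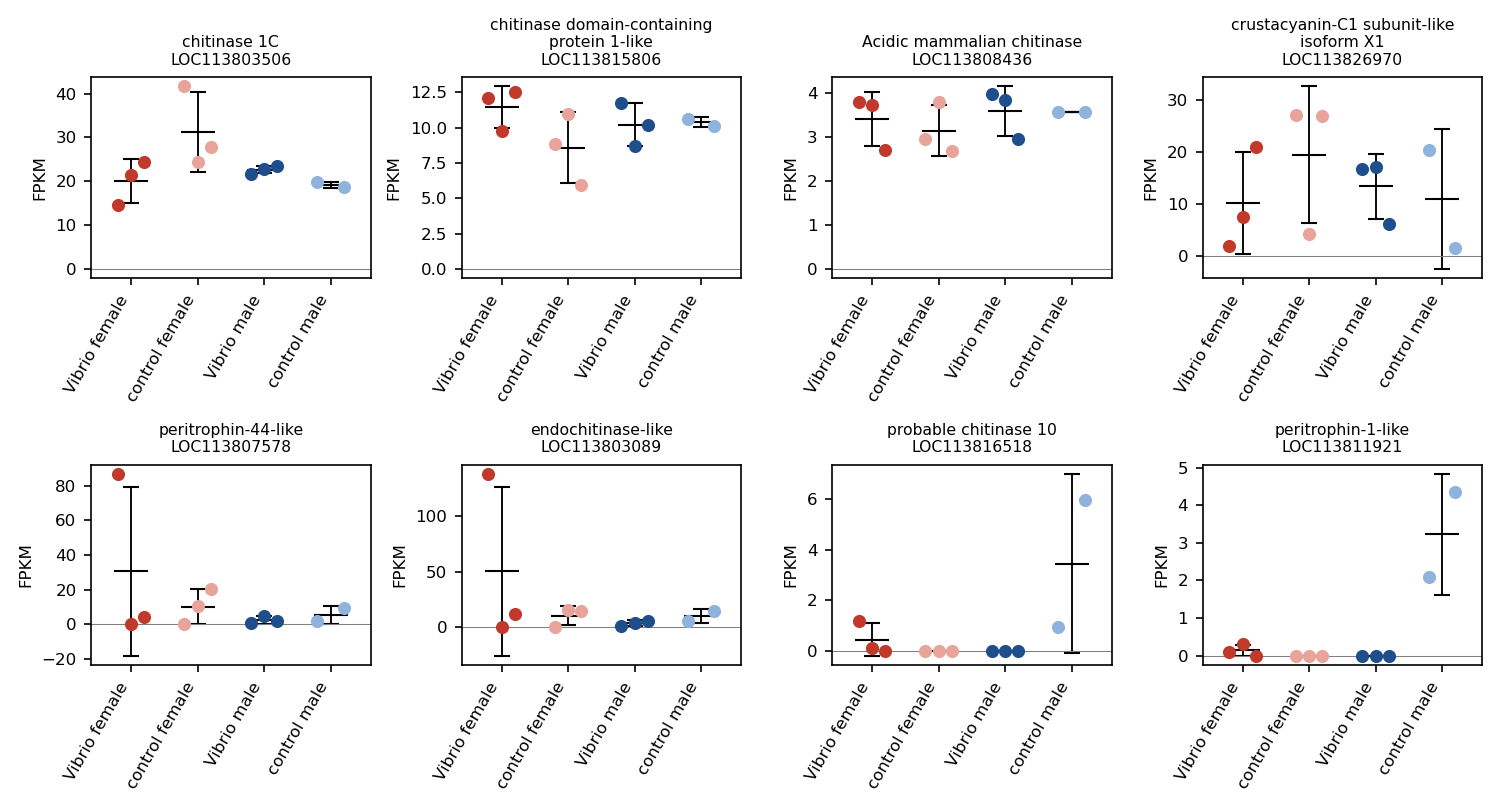
Level in FPKM of 8 members in each library (points), with the group mean and SD (bars; n = 3, and n = 2 for control males). The first 3 genes, all named as chitinases or chitinase-like, were counted in every library, peritrophin-44-like and endochitinase-like are high in 1 Vibrio female, and probable chitinase 10 and peritrophin-1-like LOC113811921 are highest in control males.

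The 5 obstructors, scaffold proteins of the fly cuticle, were close to absent and none was tested. The most abundant, obstructor-E-like (LOC113814524), had 18 counts in Vibrio female 1, 8 in control female 3 and 4 in control male 3, and 0 elsewhere.

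Cuticle proteins formed the largest subgroup, and most were rare. Of 99, only 9 were tested, 58 had counts in a single library and 3 had counts in all 11. Their summed level was 23.3, 8.67 and 4.81 FPKM in Vibrio females, against 8.003, 2.86 and 9.84 FPKM in control females. It was 6.40, 2.07 and 6.83 FPKM in Vibrio males, against 3.06 and 8.79 FPKM in control males. Groups overlapped, and Vibrio female 1 held the highest sum and Vibrio male 2 the lowest.

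Cuticle protein 8-like (LOC113825519), a structural protein of the shell, was the most abundant. It had 0.490, 3.48 and 2.48 FPKM in Vibrio females, against 1.28, 0.754 and 3.15 FPKM in control females. It had 2.42, 0.384 and 3.91 FPKM in Vibrio males, against 0.295 and 3.32 FPKM in control males. Unlike the peritrophins, it was low in Vibrio female 1 and highest in Vibrio male 3. Cuticle protein AMP1A-like (LOC113804608) was the steadiest of the 3 cuticle proteins counted in every library, between 0.308 and 1.20 FPKM in the 11 libraries.

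Counts of these rare genes were low. Among the members counted in 1 library only, 11 had at least 10 counts: 6 of these were in Vibrio female 1, 2 in control female 3, 2 in Vibrio female 3 and 1 in control female 1. The highest was cuticle protein CP575-like (LOC113821813), with 49 counts (1.45 FPKM) in Vibrio female 1. Larval cuticle protein 16/17-like (LOC113821825) had 15 counts there, while cuticle protein 19-like (LOC113807557) had 20 in control female 3. None of these genes was tested.

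Of the 28 crustacyanins, 2 had counts in all 11 libraries. Crustacyanin-C1 subunit-like isoform X1 (LOC113826970), a pigment-binding subunit, was the fourth most abundant member. It had 1.96, 7.51 and 21.0 FPKM in Vibrio females, against 27.1, 4.23 and 27.0 FPKM in control females. It had 16.8, 17.2 and 6.23 FPKM in Vibrio males, against 20.5 and 1.44 FPKM in control males. It was low in Vibrio female 1, control female 2 and control male 3, and the groups overlapped (edgeR adjusted p = 0.986 in females and 0.995 in males).

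Crustacyanin subunit C (LOC113817583), another pigment-binding subunit, was steady, with a coefficient of variation of 25.4%. It had 1.81, 1.61 and 1.901 FPKM in Vibrio females, against 2.38, 2.04 and 3.58 FPKM in control females. It was the 1 tested member whose Vibrio females all lay below the control females in scaled CPM, counts scaled to a common depth by TMM, against 3.9% of genes. Its log2 fold change was -0.62 (SE 0.32, edgeR adjusted p = 0.986). In males it had 2.92, 2.31 and 2.15 FPKM with Vibrio, against 2.30 and 1.75 FPKM in controls, and the ranges overlapped.

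Most other crustacyanins lay side by side and under 1 FPKM on average. Of the 171 members, 98 were direct neighbours of another member in the deposited coordinates, in 28 runs. The longest run held 16 crustacyanin genes, and another held 7. The build behind those positions was not named, so no coordinates are printed. In RefSeq assembly ASM4276789v1, 13 of the 16 were found by gene identifier, all on 1 chromosome within a span of 14 genes. Not every run was as close there. The run of 5 obstructors, 3 of them found, spanned 1173 genes, a run of 7 cuticle proteins spanned 86 and the 3 chitinase-family genes spanned 5. Some pairs, such as peritrophins LOC113800625 and LOC113800626, spanned 2.

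The 16 neighbours did not behave as a unit. Their summed level was 17.5, 0.378 and 1.47 FPKM in Vibrio females, against 0, 11.9 and 1.78 FPKM in control females. It was 0.240, 0.210 and 2.80 FPKM in Vibrio males, against 2.90 and 7.81 FPKM in control males. The genes at places 1 to 4, 8 and 9 were highest in control female 2. Those at places 10 to 16 were all highest in Vibrio female 1, led by crustacyanin-A1 subunit-like (LOC113824728) with 3.91 FPKM. Of crustacyanin-A2 subunit-like genes 11 share that name, so reads may have been divided among copies and levels of single copies are uncertain.

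**Figure D4:**
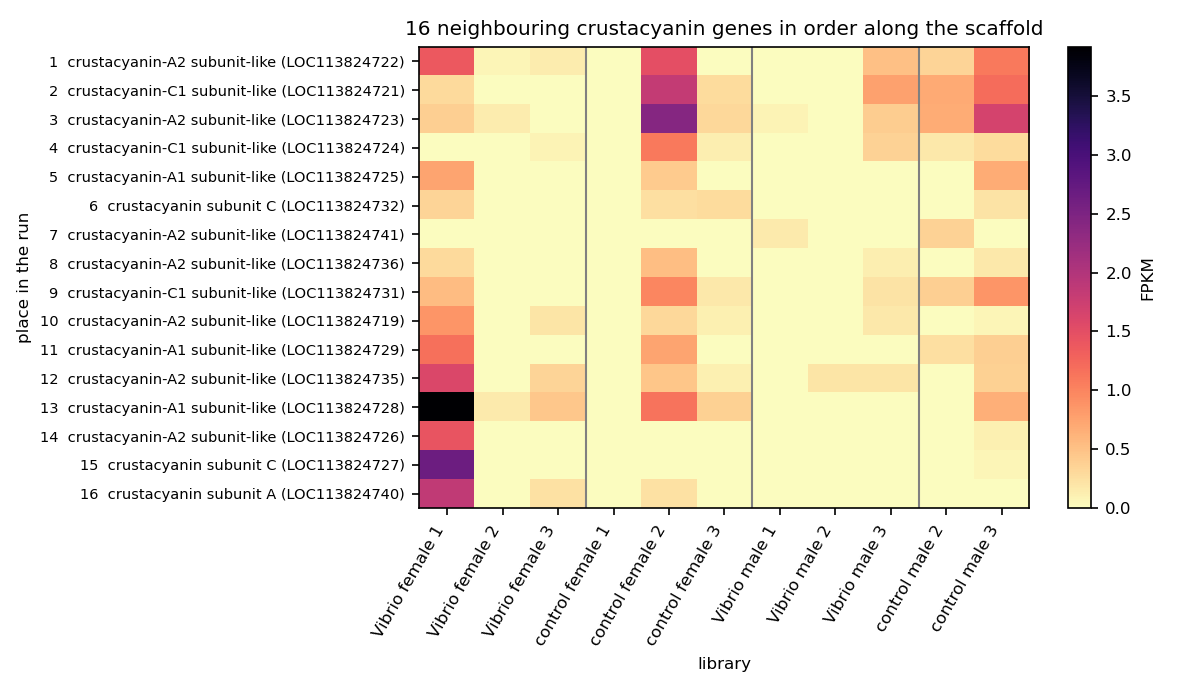
Level in FPKM of 16 neighbouring crustacyanin genes, in their order along the scaffold from top to bottom, in each library. Places 1 to 4 are highest in control female 2 and places 10 to 16 in Vibrio female 1, while control female 1 has no count in the run.

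In females, Vibrio libraries were set against controls to read these genes after stimulation. With edgeR, 0 of 56 tested members passed, as did 0.0% of 14295 genes. At an unadjusted p under 0.05 there were 3 members, against 4.05% of genes, namely chitinase 1C, probable chitinase 10 and peritrophin-1-like LOC113811921. DESeq2 called no member and 25 genes (0.157%). Of the 56 members, 38 had higher and 18 lower fitted levels with Vibrio, with a median log2 fold change of 0.67 with members that were at 0 in a group held at their bound, against 0.05 for all genes. A rare member passed the filter through the libraries where it was high, so such counts and medians describe the fit and are no test of the members.

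All 10 tested peritrophins were on the higher side in Vibrio females, with a median of 1.01 in the same measure, as were 11 of 17 chitin enzymes, 11 of 20 crustacyanins and 6 of 9 cuticle proteins. Without Vibrio female 1, 15 of 48 tested members were higher and the median was -0.65. The filter then admitted fewer members than the 56 of the main fit, and no bounds were used. The shift therefore cannot be laid to that library alone. No member had all Vibrio females above all control females, against 2.48% of genes. Muscle markers had a median log2 fold change of -0.38 in this comparison, with 14 of 23 lower. Hemocyte markers had a median of -0.27, with 19 of 27 lower. Hepatopancreas markers had a median of 0.74, with 52 of 65 higher. With the mean level of the hepatopancreas markers as a covariate, 19 of the 56 members were higher and the median was -0.59. That level, in log2 CPM, was highest in Vibrio female 1 (3.15, against 1.95 or less elsewhere). The covariate therefore cannot separate the markers from that library, and the part of the marker lists was not tested.

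The comparison of Vibrio with control males gave 0 members and 0.0% of genes with edgeR, and 5 members at an unadjusted p under 0.05, against 2.41% of genes. DESeq2 called 1 member and 15 genes (0.0833%). Here the fitted levels leaned the other way, with 11 members higher and 43 lower in Vibrio males. With bounds for members at 0 in 1 group and without the 5 at or under the floor in both, the median was -1.44, against -0.03 for all genes. The 10 tested peritrophins were all lower in the fit, with a median of -1.88 over the 9 with a value or bound, beside 13 of 17 chitin enzymes (-1.39) and 15 of 20 crustacyanins (-1.10).

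Of the 56 tested members, 13 had all Vibrio males below both control males, against 11.5% of genes, and 2 had all of them above, against 13.3%. Those 2 were chitinase (LOC113808840), with 13, 3 and 10 counts in Vibrio males, against 0 and 0 in control males, and chitinase-3-like protein 1 (LOC113817259), with 18, 24 and 24 counts, against 0 and 8. The first was at least 2.27-fold higher in Vibrio males (edgeR adjusted p = 0.933), at counts where the floor limits what can be read. Over all 56 members of the main fit, with no bounds, the median was -1.49. In that measure, without control male 3, 27 of 79 tested members were higher and the median was 0. With 1 control male left the filter admitted more members, so this shift cannot be laid to control male 3 alone. Hepatopancreas markers had a median of -1.61 in this comparison. With them as a covariate the members' median was -0.15 in the same measure. Muscle markers had a median of -1.50 over 23 tested genes. The covariate cannot separate the markers from differences between libraries, and the part of neither list in the result was tested.

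**Figure D5:**
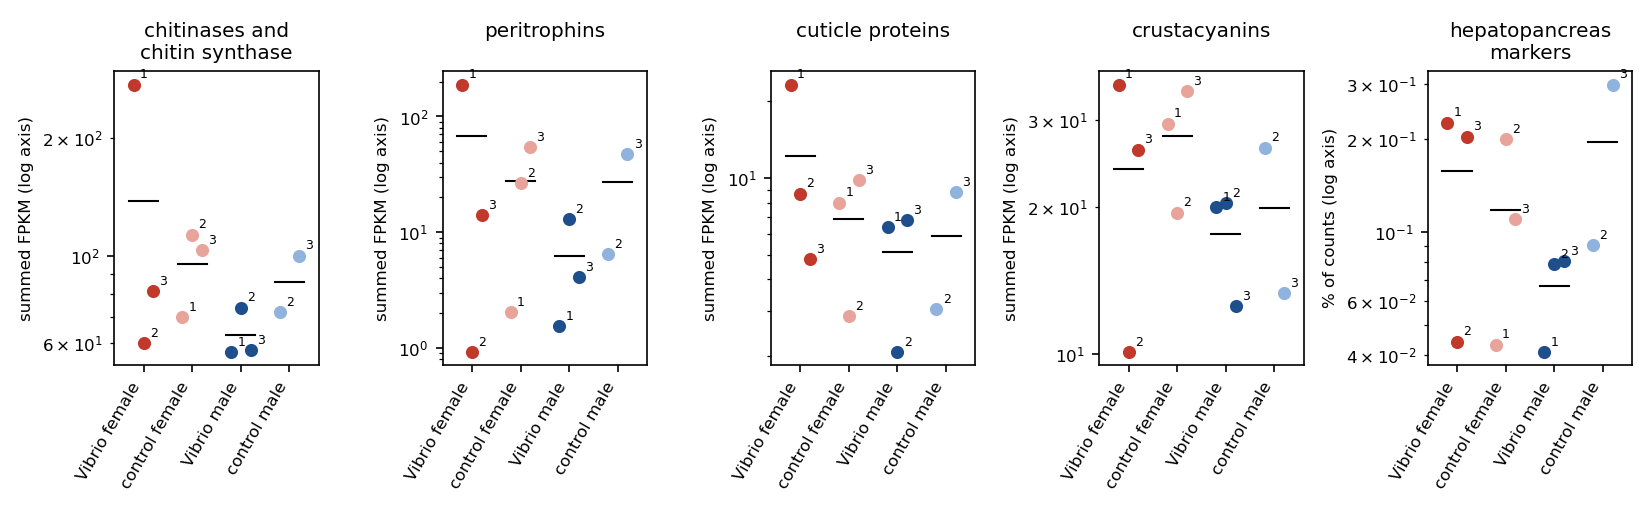
Summed FPKM of 4 subgroups, and the percent of counts in hepatopancreas markers, in each library (points, numbered by replicate) with the group mean (line), on log axes. Vibrio female 1 is highest for all 4 subgroups, and control male 3 is highest for the hepatopancreas markers at 0.299%. By the mean log2 CPM of the tested markers, the measure used as the covariate, Vibrio female 1 was highest (3.15), ahead of control male 3 (1.95).

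Over both sexes, edgeR called 0 members and 0.0% of genes, and 2 members had an unadjusted p under 0.05, against 2.02% of genes. The 2 were flexible cuticle protein 12-like (LOC113802792), counted in 3 control libraries only with 12, 4 and 11 counts, and probable chitinase 2 (LOC113830447), named for a fly chitinase. DESeq2 called no member and 6 genes (0.0333%). Probable chitinase 2 had 0.142, 0.753 and 0.768 FPKM in Vibrio females, against 0.576, 2.13 and 1.09 FPKM in control females. It had 0.252, 1.15 and 0.315 FPKM in Vibrio males, against 1.56 and 1.25 FPKM in control males. Vibrio males all lay below control males, females overlapped, and the log2 fold change over both sexes was -1.28 (SE 0.58, edgeR adjusted p = 1.00).

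The test of whether the Vibrio effect differed between males and females also called 0 members and 0.0% of genes with edgeR, with 4 members at an unadjusted p under 0.05, against 5.6% of genes. DESeq2 called 1 member, LOC113811921, and 26 genes (0.15%). In the fit, 44 of 56 members had a lower Vibrio effect in males than in females, with a median difference of -2.05. Among the 41 with a count in each of the 4 groups, 32 did so, with a median difference of -1.63. Over all fitted members, without Vibrio female 1, 19 of 48 were higher and the median was -0.41. Without control male 3 the values were 30 of 79 and -0.87, with more members admitted by the filter. With the hepatopancreas covariate 35 of 56 were higher and the median was 0.79. Muscle markers had a median difference of -0.87, with 16 of 23 lower. The part of neither the hepatopancreas nor the muscle list was tested.

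Control males were set against control females to read the sexes without stimulation. EdgeR called 0 members and 0.0% of genes, and 4 members had an unadjusted p under 0.05, against 4.88% of genes. DESeq2 called 1 member, LOC113811921, and 14 genes (0.099%). Members divided evenly, with 28 higher and 28 lower in control males and a median of -0.02, equal to that of all genes. Without control male 3, 20 of 79 were higher with a median of -1.26. Without control male 2, 44 of 79 were higher with a median of 0.22. More members passed the filter in these fits than in the main fit. In scaled CPM, both control males lay above all control females in 4 members, against 9.54% of genes: LOC113800666 (whose FPKM overlapped), LOC113810219, LOC113811921 and LOC113816518. In 1 both lay below, against 11.8% of genes. That was chitinase-3-like protein 1 (LOC113817259), with 0 and 8 counts in control males, against 12, 92 and 69 in control females (log2 fold change -3.77, SE 1.31, edgeR adjusted p = 0.756).

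In the Vibrio groups, males had lower fitted levels than females for 44 of 56 members, with a median of -1.56 with bounds, against -0.09 for all genes. None passed with edgeR, as for 0.0% of genes, and 6 had an unadjusted p under 0.05, against 3.4% of genes. DESeq2 called no member and 17 genes (0.115%). Of the tested peritrophins, 10 of 10 were lower in Vibrio males. Over all 56 fitted members, with no bounds, the median was -2.52. In that measure, without Vibrio female 1, the median over 48 members was -0.10, with 17 higher. Hepatopancreas markers were lower in Vibrio males for 56 of 65 genes, with a median of -2.67. With them as a covariate, 38 of 56 members were higher and the median was 0.43 in the same measure. Muscle markers were lower in Vibrio males for 18 of 23 tested genes and higher for 5, with a median of -1.61. The part of neither the hepatopancreas nor the muscle list in the result was tested. In 4 members all Vibrio males lay below all Vibrio females, against 2.95% of genes, and in 1, crustacyanin subunit C, all lay above, against 4.82%.

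These 4 included crustacyanin-A1 subunit-like LOC113824728, at 0 counts in each Vibrio male, against 150, 7 and 18 counts in Vibrio females, which makes it at least 19.7-fold lower in Vibrio males (edgeR adjusted p = 1.00). Vibrio female 1 held most of these counts, and without it the bound was 4.10-fold. Peritrophin-48-like (LOC113813286), another gut-lining protein by name, had 0 counts in each Vibrio male, against 10, 12 and 4 in Vibrio females. Over both treatments, males against females gave 0 members and 0.0% of genes, and 5 members at an unadjusted p under 0.05, against 3.33% of genes. DESeq2 called no member and 11 genes (0.0611%). The smallest p was that of chitinase-3-like protein 1 (LOC113817259), with a log2 fold change of -2.51 (SE 0.81, edgeR adjusted p = 0.953). Cuticle protein AMP4-like (LOC113811018), with 114 counts in Vibrio female 1, was also among the 5. Comparisons above share groups of libraries, so their medians are not independent of each other.

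Genes named for amino sugars, chitin precursors and general sugar enzymes, and those of moulting, were read beside the members. The share of counts of the sugar genes was not read as a supply of chitin's sugar. Amino sugar and chitin precursor genes (21, of which 19 were tested) took 0.148 to 0.199% of counts in Vibrio females, against 0.142 to 0.174% in control females. They took 0.144 to 0.181% in Vibrio males, against 0.188 to 0.197% in control males. No gene of the list passed in any of the 7 contrasts with edgeR, and at most 3 had an unadjusted p under 0.05 in a contrast. Glucose-6-phosphate isomerase-like (LOC113819923), which makes fructose 6-phosphate, averaged 403 ± 105 FPKM in Vibrio females and 362 ± 54.0 FPKM in control females (SD, n = 3 each).

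Of the 91 moulting and shell hardening genes, 39 were tested and none passed in any of the 7 contrasts with edgeR, with at most 5 at an unadjusted p under 0.05. Laccase-2-like (LOC113802330), an oxidase that tans the cuticle in insects, was the most abundant. It averaged 33.9 ± 10.9 FPKM in Vibrio females and 148 ± 103 FPKM in control females (SD, n = 3 each). It averaged 46.8 ± 18.5 FPKM in Vibrio males (n = 3) and 71.8 ± 77.8 FPKM in control males (n = 2). Broad-complex core protein-like (LOC113804772), an ecdysone-response transcription factor, was at 31.3 to 66.6 FPKM in the 11 libraries. Both had higher means than every cuticle protein, of which 2 reached a mean of 1 FPKM.

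The deposited annotation gave Gene Ontology terms to 91 members. Of these, 49 carried structural constituent of cuticle (95 genes in all), 29 chitin binding (104 in all) and 18 chitinase activity (30 in all). The rule on names therefore left out 75 genes annotated with chitin binding.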

How the data were processed

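RNA-seq of hemocytes was deposited as 1 table of 18803 genes with, for each library, a count and an FPKM value. The authors' counts are whole numbers with unequal totals and were taken as raw counts per gene. The deposited FPKM values, named so per the file headers, were taken as these counts scaled by gene length and depth. Trimming with cutadapt 1.9 and use of FastQC are given in the submitters' processing notes. Not given in the sources used here were the aligner, the counting program, the strandedness and the build behind the coordinates.

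Genes were tested with edgeR 4.0.16 and limma 3.58.1 in R 4.3.3 by a quasi-likelihood model with TMM scaling, filterByExpr and robust dispersion. All 11 libraries entered 1 fit, with a mean for each of 4 groups, and 7 two-sided contrasts were taken from it. Benjamini-Hochberg adjustment ran over the 14295 genes that passed the filter, and calls were made at an adjusted p under 0.05. The fit was tested on simulated data. DESeq2 1.42.0 was an alternative. Each SE was obtained from the log2 fold change and its F statistic (their quotient, after taking the root of F). Levels are FPKM, and differences are log2 fold changes of scaled counts. A count of 0 was taken to allow 3 counts per library. Bounds on folds use that floor and cover counting error only. Of 333 member counts from 1 to 20, 209 (62.8%) were even, so counts may not be independent fragments and the floor may be too low.

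No library duplicated another of its group: chi-square values per degree of freedom between them lay at 110.8 to 506.3.

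Members and lists were chosen with earlier results of these data known. From the lists, 11 genes were removed whose names matched by accident, such as disintegrins. Named members were those called, the 12 most abundant, the 3 with the smallest p in each contrast, the most abundant of each subgroup, the 6 most variable with at least 1 CPM, and those with at least 10 counts in a single library. Others were chosen after their values were seen. Genes that share a name may share reads. The RefSeq table, which held 141 members, was used for neighbours only. Alternatives were another scaling, other filters, DESeq2, a non-robust fit, a replicate block, a hepatopancreas covariate, fits on the compared groups alone and leaving out each library.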

Additional observations from a re-analysis of the deposited data

How the results depend on the processing

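No gene or member was called in the main edgeR fit of any contrast, and the same held with median-ratio scaling, a non-robust fit, other filters, the replicate block, the hepatopancreas covariate and fits on the compared groups alone. DESeq2 called 25 genes for Vibrio in females, 15 in males, 6 over both sexes, 14 for control males against control females, 17 with Vibrio, 11 over both treatments and 26 for the difference, and 1 member, peritrophin-1-like LOC113811921, for Vibrio in males, control males against control females and the difference. In the same order, members with a higher fitted level numbered 38, 11, 21, 28, 11, 18 and 12. With no filter they numbered 93, 24, 75, 58, 23, 45 and 56. With DESeq2 they numbered 93, 24, 74, 58, 23, 46 and 53. With at least 1 CPM in 2 libraries they numbered 21, 6, 9, 14, 6, 10 and 5; more or fewer members were fitted in each of these. With the covariate the number was 19 for Vibrio in females, 24 in males, 38 for males against females with Vibrio, 35 over both treatments and 35 for the difference. Fitting only the compared groups gave 24 for Vibrio in females and 7 for males against females with Vibrio. The filter was run anew on those groups, so these counts may not be over the members of the main fit. The replicate block, with samples paired by number, gave 35, 14, 20, 25, 14, 17 and 13 and called 0 genes, as without it. Deviations from group means in the 15 same-numbered pairs correlated at -0.574 to 0.498, with 5 over 0.1. Deviations within a group sum to 0, so these values cannot settle whether same-numbered samples were paired.

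Leaving out 1 library at a time gave 0 to 1 genes called in each contrast, and 0 to 2 over both sexes and over both treatments, with 0 members. Members higher then numbered 15 to 59, 9 to 27, 10 to 53, 19 to 44, 9 to 17, 13 to 22 and 8 to 30. The coefficients of variation, the bounds and the fold of peritrophin-44-like without 1 library were chosen after seeing the data. By another such alternative, the mean share of counts in members with 1 library of the group left out ran from 0.0187 to 0.0541% in Vibrio females, 0.0247 to 0.0314% in control females, 0.0162 to 0.0187% in Vibrio males and 0.0209 to 0.0274% in control males. The lowest value for Vibrio females was without replicate 1. For Vibrio in females the count was 59 of 79 tested without either control male, and over both sexes it was 10 of 48 without Vibrio female 1, 37 of 79 without control male 2 and 53 of 79 without control male 3. With 1 control male left the filter admitted 79 members, so those counts are not over the set of the main fit. The main fit called no gene, so there was no call whose direction could reverse. Depth limits the 115 members that were not tested, and 2 control males limit every contrast that uses them.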

Other observations

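Chitin binding was annotated for 75 genes outside the rule on names, of which 15 averaged at least 1 FPKM. The most abundant was penaeidin-3a-like (LOC113808997), an antimicrobial peptide of shrimp hemocytes with a chitin-binding region, at a mean of 12182 FPKM and between 7223 and 18886 FPKM. Penaeidin-2b-like (LOC113808998) averaged 1171 FPKM and hemocytin-like (LOC113824171), named for an insect hemocyte lectin, 66.4 FPKM. Each of these 3 exceeded chitinase 1C, the most abundant gene under the rule.

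Other genes of this kind differed between libraries as the peritrophins did. Uncharacterized protein LOC113810052 had 213, 0.242 and 10.0 FPKM in Vibrio females, against 0.896, 25.4 and 59.1 FPKM in control females. Zonadhesin-like (LOC113810053) had 45.5, 0 and 2.88 FPKM in Vibrio females, against 0.262, 7.24 and 20.1 FPKM in control females. Chitotriosidase-1-like (LOC113817260), a chitinase by name, had 72.8, 0 and 28.001 FPKM in Vibrio females, against 0.819, 28.7 and 41.7 FPKM in control females. Among females, all 3 were highest in Vibrio female 1, lowest in Vibrio female 2 and second lowest in control female 1. Not all went this way. Chitotriosidase-1-like LOC113822241 had 46.6, 41.0 and 13.4 FPKM in Vibrio females, against 39.4, 9.41 and 16.9 FPKM in control females. Another gene of that name (LOC113800742) was at 5.95 to 6.96 FPKM in all 11 libraries. Di-N-acetylchitobiase-like isoform X1 (LOC113829053), named for a lysosomal enzyme, was at 13.3 to 24.6 FPKM.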
